A study of Mus musculus with 8 samples.

Results

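Cells meet viruses with restriction factors, proteins that block the entry, replication or release of virus particles. Most are made in bulk only after type I interferon binds its receptor, when the kinases Jak1 and Tyk2 set off a signal that ends on a DNA element called the interferon-stimulated response element (ISRE). A second element, the gamma-activated site (GAS), is best known from the response to interferon gamma. Preadipocytes, the fibroblast-like precursors of fat cells, carry this pathway as most fibroblasts do. The 10 genes described here act at each step: Ifitm1, Ifitm2 and Ifitm3 at entry; Mx1, Mx2, Rsad2 and Samhd1 at replication; Bst2 at release; and Ifi27l2a and Ifi44 as interferon-induced effectors. They were chosen by name out of 46073 gene identifiers, with their values in all 8 libraries already known, so their levels and differences are a description. Whether a gene passed the threshold of the fit is stated as part of that description, with no p-value, and is no independent evidence.

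The libraries are from 3T3L1, a mouse preadipocyte line of Swiss albino origin, in a study that asked whether RNA decay in P-bodies, cytoplasmic granules that need the RNA helicase Ddx6, is needed for fat cell formation. There were 2 libraries in each of 4 groups: Ddx6-KO cells at day 2, Ddx6-KO cells at day 0, TOM cells at day 2 and TOM cells at day 0 of induction with dexamethasone, IBMX and insulin. Both lines carried Cas9 from a lentivirus and went through puromycin selection and cloning from single cells; the guide RNA was against Ddx6 in Ddx6-KO cells and against tdTomato, a fluorescent protein, in the mock-transfected TOM cells. The sources used here do not give the number of clones, so loss of Ddx6 and differences between clones cannot be told apart. The titles, which were followed, separate day 0 from day 2, while the treatment text of every sample speaks of cells taken 2 days into induction. The study speaks of repeated experiments for gene expression in general, but the labels do not say whether the 2 libraries here are separate cultures, so the errors cover only the spread between libraries, which may be technical.

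Values are FPKM, fragments per kilobase of transcript, scaled to the mapped fragments of each library. Differences are log2(FPKM + 1) values from a limma fit over 15811 genes, given ± the standard error (SE) with 2 libraries a group, and a gene passed at a Benjamini-Hochberg adjusted p under 0.05. This scale understates the change of genes near 1 FPKM. All 10 genes passed the filter of at least 1 FPKM in at least 2 libraries. The 5 comparisons share libraries.

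Ddx6 itself measured 50.001 and 43.0 FPKM in Ddx6-KO cells at day 2, 27.2 and 31.9 FPKM in Ddx6-KO cells at day 0, 28.8 and 28.4 FPKM in TOM cells at day 2 and 11.3 and 19.9 FPKM in TOM cells at day 0. Its RNA was thus not lower but higher in the libraries labelled Ddx6-KO than in the TOM libraries on each day, with no overlap. A gene-level value does not check a short deletion in the coding sequence. The study reports that loss of the protein in its knockout cells was checked by western blotting. Depth, judged from the spacing of the lowest FPKM values, was about 21230000 fragments in library 1 of TOM day 0 and about 1490000 to 5730000 fragments in the other 7. Of 9 adipocyte markers, the summed level was 25.2 to 34.0 FPKM in Ddx6-KO cells at day 2, 44.5 to 47.3 FPKM in Ddx6-KO cells at day 0, 707 to 712 FPKM in TOM cells at day 2 and 228 to 255 FPKM in TOM cells at day 0. The 8 preadipocyte markers summed to 577 to 616 FPKM, 796 to 823 FPKM, 689 to 712 FPKM and 1155 to 1474 FPKM in these groups. Both sums hide members that moved in opposite ways. In TOM cells at day 0, Lpl made up 195 and 173 FPKM of the adipocyte sum, and it was lower at day 2. Fabp4 in TOM cells was 17.5 and 21.1 FPKM at day 0 and 520 and 496 FPKM at day 2. In Ddx6-KO cells Pdgfra was higher at day 2 by 1.18 (adjusted p = 0.00154 in limma). Dlk1 (−1.65, adjusted p = 0.0294 in limma) and Ly6a (−1.61, adjusted p = 0.0388 in limma) were lower. Of 8 macrophage markers, 3 ever exceeded 1 FPKM and the sum was 2.08 to 6.85 FPKM over all libraries. Ptprc, the leukocyte antigen, stayed between 0.0913 and 1.20 FPKM and Adgre1 was listed at 0 in 5 of 8 libraries. The other markers that exceeded 1 FPKM were Cd68 and Fcer1g. Cd68 reached 3.54 FPKM in library 1 of TOM day 2, and Fcer1g reached 2.83 FPKM in library 2 of TOM day 0. The 5 endothelial markers summed to 3.57 to 5.75 FPKM in Ddx6-KO cells at day 2, 1.09 to 1.92 FPKM in Ddx6-KO cells at day 0, 0.63 to 1.78 FPKM in TOM cells at day 2 and 1.19 to 1.30 FPKM in TOM cells at day 0. Of these only Pecam1 passed the filter and was tested. Pecam1 was higher in Ddx6-KO cells at day 2 by 1.48 (adjusted p = 0.0235 in limma), with 2.54 and 3.41 FPKM in Ddx6-KO cells and 0.124 and 0.780 FPKM in TOM cells. Kdr, not tested, had 0.868 and 1.24 FPKM in Ddx6-KO cells and 0.176 and 0.186 FPKM in TOM cells at day 2. Cdh5, Tek and Emcn stayed under 1 FPKM in all 8 libraries. The 4 epithelial markers summed to 0.98 to 3.85 FPKM over all libraries. Of 9 adipocyte markers tested, 3 passed as lower in Ddx6-KO cells at day 0 (4.81% of all genes) and all 9 at day 2 (8.58%). Of 6 preadipocyte markers tested, 4 passed as lower at day 0, and 3 as lower and 1 as higher (10.4% of all genes) at day 2. In TOM cells 7 adipocyte markers passed as higher at day 2 than at day 0 (3.4% of all genes) and 1 as lower (3.74%). Adipocyte and preadipocyte markers, and Pecam1 among the endothelial markers, thus differed between groups along with the genes below. Their part in those differences was not tested. In bulk RNA, fewer expressing cells and less RNA per cell cannot be told apart.

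RefSeq promoter windows of 300 bases (250 before and 50 after the start, build GRCm38.p6) were found for 7 of the 10 genes; Mx1, Mx2 and Ifi27l2a are named only. The ISRE core, spelled GAAANNGAAA and searched on both strands, stood in 4 of these 7 windows, against 1131 of 32851 windows of the same length over all genes (3.44%). The 4 stretches that hold it are shown because the ISRE is the kind of element through which interferon is known to act. These are word matches only, and whether interferon acts through them was not tested. Each is 80 bases, 5′ to 3′ on the strand of the gene, which is the minus strand in all 4, with ISRE core matches in capitals.
Bst2, chr8:71537555-71537634: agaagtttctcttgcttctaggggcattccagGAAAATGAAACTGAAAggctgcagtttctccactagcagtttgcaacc
Rsad2, chr12:26456528-26456607: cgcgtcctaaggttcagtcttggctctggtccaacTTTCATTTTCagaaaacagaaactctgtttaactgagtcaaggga
Ifitm2, chr7:140955963-140956042: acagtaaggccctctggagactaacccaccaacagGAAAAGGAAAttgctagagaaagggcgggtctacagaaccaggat
Ifitm3, chr7:141010715-141010794: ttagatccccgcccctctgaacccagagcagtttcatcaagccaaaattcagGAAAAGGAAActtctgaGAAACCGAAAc

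Bst2 had 2 overlapping matches, 130 and 124 bases before the RefSeq start. Rsad2 had 1, which lay on the other strand 120 bases before the start, and Ifitm2 had 1 at 46 bases before it. Ifitm3 had 2, beginning 2 and 19 bases after the start. The GAS core, spelled TTCNNNGAA, stood in 3 of the 7 windows, against 8.3% of all windows: in Bst2 and Ifitm3 it overlapped an ISRE core match, and in Samhd1 it lay 235 bases before the start. Ifi44 and Ifitm1 held neither word in this window. The genes with an ISRE core match did not share a pattern of levels: at day 0 the Ddx6-KO libraries had less Bst2 and Rsad2 but more Ifitm2 than the TOM libraries, as the values below show.

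**Figure D1:**
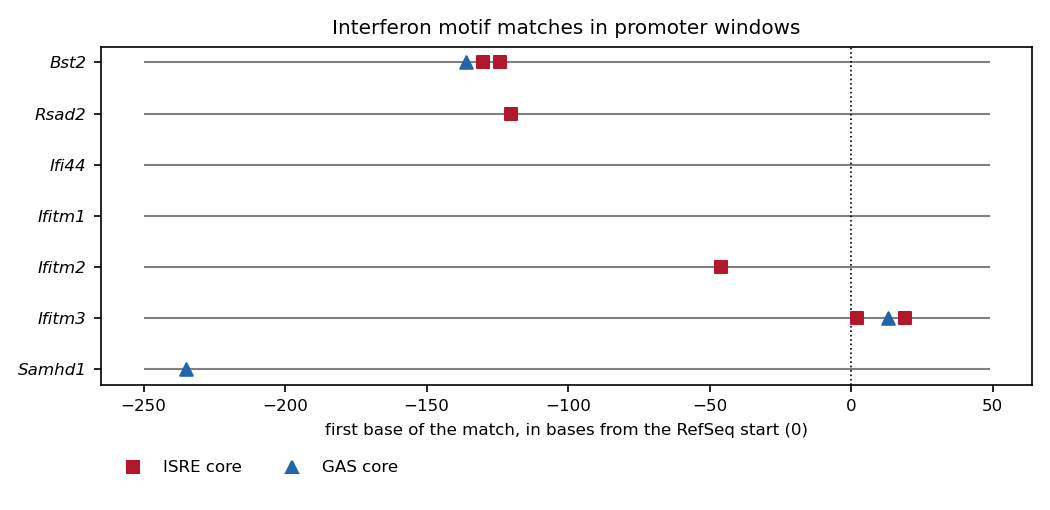
Position of each motif match in the 7 promoter windows, with bases from the RefSeq start on the x axis (0 is the start) and a row for each gene; squares are ISRE core matches and triangles GAS core matches. Bst2 and Ifitm3 hold both words, and Ifi44 and Ifitm1 hold neither.

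Most of these genes were lower at day 2 than at day 0. In Ddx6-KO cells 5 of the 10 passed as lower at day 2, against 5.85% of all genes tested, and the median difference of the 10 was −0.82, against 0.09 over all genes. In TOM cells 7 passed as lower, against 3.74% of all genes, and 1, Ifitm2, as higher, against 3.4%, with a median of −3.92, against 0.03 over all genes. All these shares stand beside a choice made on the same values, so nothing is read from them. Leaving out 1 library changed the Ddx6-KO count by over 1.5 times: it was 2 without library 1 or without library 2 of Ddx6-KO day 0, and 3 without library 1 of Ddx6-KO day 2.

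**Figure D2:**
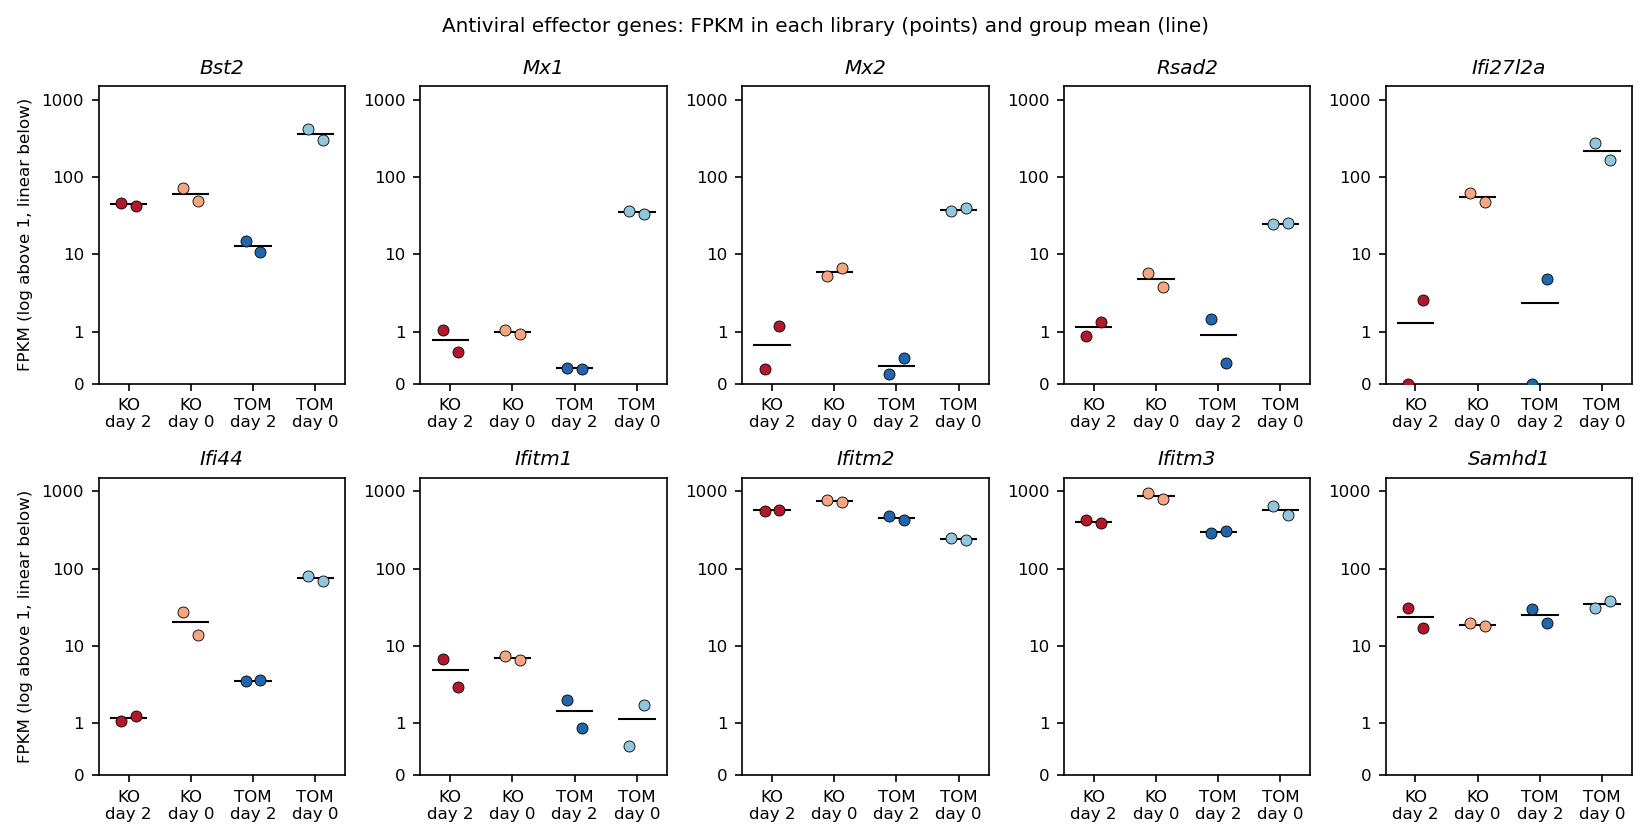
FPKM of the 10 genes in each library (points, library 1 left of library 2) and the group mean (line), with groups on the x axis and a y axis that is logarithmic above 1 and linear below. TOM day 0 holds the highest levels of Bst2, Mx1, Mx2, Rsad2, Ifi27l2a, Ifi44 and Samhd1, while Ifitm1, Ifitm2 and Ifitm3 are highest in Ddx6-KO day 0.

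Bst2 (ENSMUSG00000046718, chr8:71534255-71537456, minus strand), also called tetherin, holds budding enveloped virions on the surface of the cell. It measured 46.6 and 42.8 FPKM in Ddx6-KO cells at day 2 and 71.9 and 49.3 FPKM in Ddx6-KO cells at day 0. In TOM cells it measured 14.7 and 10.9 FPKM at day 2, against 423 and 297 FPKM at day 0. The 4 groups did not overlap, and both TOM groups lay outside the range of the 4 Ddx6-KO libraries, TOM day 2 below and TOM day 0 above.

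The log2 difference of Bst2 between the days was −0.41 ± 0.25 in Ddx6-KO cells and did not pass. Its fall in TOM cells was −4.70 ± 0.25, 28.1-fold by mean FPKM. Against TOM cells, Bst2 was thereby lower in Ddx6-KO cells at day 0, by −2.55 ± 0.25 (5.94-fold by mean), and higher at day 2, by 1.74 ± 0.25 (3.49-fold). The change in Ddx6-KO minus the change in TOM was 4.29 ± 0.35 and passed. Bst2 was the only member that passed with opposite signs between the lines on the 2 days.

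Mx1 and Mx2 are dynamin-like GTPases that wrap viral ribonucleoproteins; in mice Mx1 acts in the nucleus, on influenza-like viruses, and Mx2 in the cytoplasm. They lie 72.4 kb apart on chromosome 16 (Mx1 at chr16:97447035-97462907, minus strand; Mx2 at chr16:97535308-97560900, plus strand), and GENCODE lists Mx2 as a polymorphic pseudogene in the reference strain. As near-identical stretches can share reads and the sources used here do not say how such reads were treated, the split between the pair is uncertain. Mx1 measured 1.06 and 0.62 FPKM in Ddx6-KO cells at day 2 and 1.06 and 0.955 FPKM at day 0. In TOM cells Mx1 measured 0.309 and 0.279 FPKM at day 2, against 36.9 and 33.3 FPKM at day 0. Mx1 was thus high in the 2 TOM day 0 libraries alone, and the Ddx6-KO days overlapped.

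The difference of Mx1 between the days was −0.14 ± 0.23 in Ddx6-KO cells and did not pass, and in TOM cells it fell by 4.80 ± 0.23. At day 0 it was 34.8-fold lower by mean FPKM in Ddx6-KO cells, set against TOM cells, with a log2 difference of −4.17 ± 0.23. At day 2 the log2 difference was 0.50 ± 0.23 and did not pass. The day 2 values rest on about 5.1 fragments in each Ddx6-KO library and about 2.5 in each TOM library, so no fold is given for them. The change in Ddx6-KO minus the change in TOM was 4.66 ± 0.32 and passed.

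Mx2 measured 0.29 and 1.21 FPKM in Ddx6-KO cells at day 2, against 5.29 and 6.72 FPKM at day 0. In TOM cells it measured 0.175 and 0.488 FPKM at day 2, against 36.5 and 39.4 FPKM at day 0. Unlike Mx1, Mx2 was well above its day 2 level in Ddx6-KO cells at day 0, while the lines overlapped at day 2. The differences between the days were −2.05 ± 0.30 in Ddx6-KO cells and −4.88 ± 0.30 in TOM cells, and both passed, the Ddx6-KO call being lost without library 2 of Ddx6-KO day 0. The difference of these changes was 2.83 ± 0.42 and passed, but not without either library of Ddx6-KO day 0, either library of TOM day 0 or library 1 of TOM day 2. This call was also lost with a pseudocount of 0.1. At day 0 Mx2 was lower in Ddx6-KO cells by −2.48 ± 0.30 (6.32-fold by mean). The day 2 libraries held about 1 to 7.1 fragments of Mx2.

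The ratio of the paralogs differed between the lines at day 0: Mx1 over Mx2 was 0.201 and 0.142 in Ddx6-KO cells and 1.01 and 0.844 in TOM cells. The libraries of the lines did not overlap in this ratio, which was not tested and carries the uncertainty of shared reads.

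Rsad2 (chr12:26442746-26456452, minus strand) encodes viperin, a radical SAM enzyme that turns CTP into a nucleotide that ends viral RNA chains. It measured 0.928 and 1.35 FPKM in Ddx6-KO cells at day 2 and 5.83 and 3.76 FPKM at day 0. TOM cells had 1.49 and 0.407 FPKM at day 2 and 24.5 and 25.3 FPKM at day 0. Rsad2 was low in all 4 day 2 libraries, where the lines overlapped, and at day 0 it lay between day 2 and TOM day 0 in Ddx6-KO cells.

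Rsad2 fell by 1.42 ± 0.32 in Ddx6-KO cells and fell by 3.79 ± 0.32 in TOM cells, with a difference of the changes of 2.37 ± 0.46. At day 0 it was lower in Ddx6-KO cells by −2.18 ± 0.32 (5.18-fold by mean), and at day 2 the difference was 0.19 ± 0.32. Apart from the TOM fall these calls hung on single libraries, and some also on the processing. With a pseudocount of 0.1 or with no filter, the Ddx6-KO fall and the difference of changes were both lost. The Ddx6-KO fall was also lost in a fit of the Ddx6-KO libraries alone. The difference of changes was also lost with TPM rescaling, quantile normalization and a block by column number. The Ddx6-KO fall was lost without any 1 of the Ddx6-KO libraries or of the TOM day 0 libraries, the day 0 call without library 2 of Ddx6-KO or library 1 of TOM, and the difference of changes without any 1 library other than library 1 of TOM day 2.

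Samhd1 (chr2:157097533-157135265, minus strand) breaks down deoxynucleoside triphosphates and so starves reverse transcription. It measured 30.8 and 17.1 FPKM in Ddx6-KO cells at day 2 and 19.9 and 18.0 FPKM at day 0. TOM cells had 29.7 and 20.1 FPKM at day 2 and 31.0 and 38.6 FPKM at day 0. Samhd1 varied little next to the other genes, and its groups overlapped in the day comparison of Ddx6-KO cells and between the lines at day 2. Its differences between the days were 0.27 ± 0.30 in Ddx6-KO cells and −0.49 ± 0.30 in TOM cells, with 0.76 ± 0.42 between these changes, and Ddx6-KO minus TOM was −0.84 ± 0.30 at day 0 and −0.09 ± 0.30 at day 2; none of the 5 passed in limma.

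**Figure D3:**
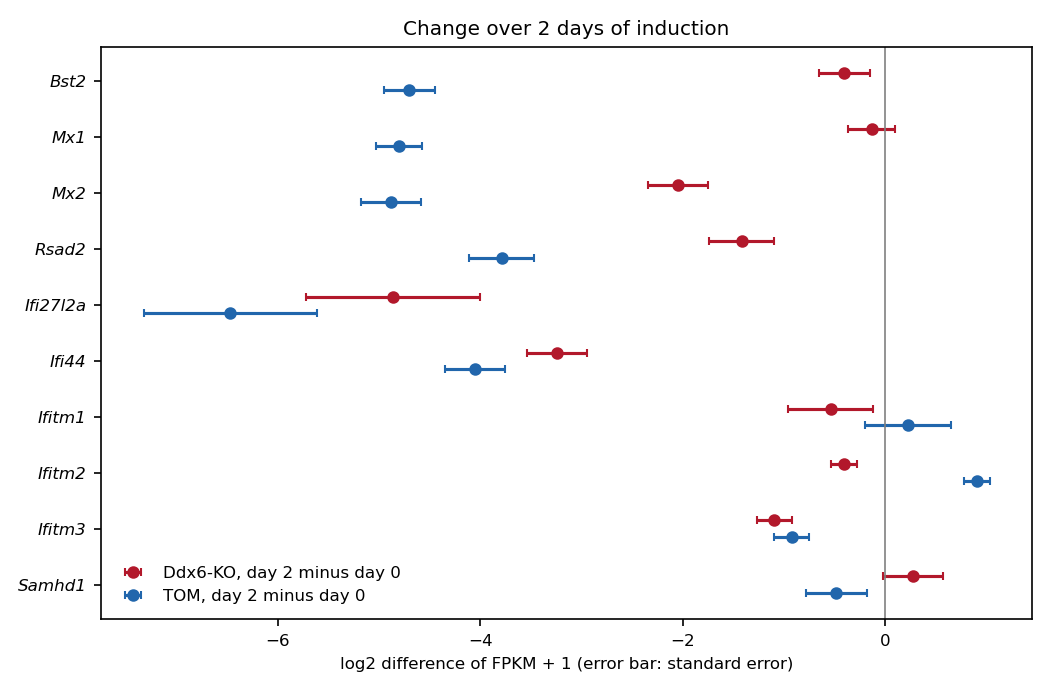
Day 2 minus day 0 on the log2(FPKM + 1) scale for each gene (points, with the standard error as bars) in Ddx6-KO cells and in TOM cells. Bst2 and Mx1 lie near 0 in Ddx6-KO cells and at −4.70 and −4.80 in TOM cells, while Ifitm3 lies at −1.10 in Ddx6-KO cells and −0.93 in TOM cells.

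Ifi27l2a and Ifi44 are strongly interferon-induced. Ifi27l2a (chr12:103442167-103443680, minus strand) encodes a small membrane protein that limits West Nile virus in the mouse brain, and the molecular action of Ifi44 (chr3:151730922-151749960, minus strand) is less settled. Ifi27l2a was listed at 0 and at 2.57 FPKM in Ddx6-KO cells at day 2, against 62.0 and 46.9 FPKM at day 0. In TOM cells Ifi27l2a was listed at 0 and at 4.79 FPKM at day 2, against 273 and 165 FPKM at day 0. Each day 2 group held a library at 0, and the other library rested on about 2 fragments in Ddx6-KO cells and about 3.9 in TOM cells, so no fold between the days is given.

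On the log2 scale Ifi27l2a fell by 4.86 ± 0.86 in Ddx6-KO cells and fell by 6.47 ± 0.86 in TOM cells. The Ddx6-KO call was lost without library 1 or library 2 of Ddx6-KO day 0 and without library 1 of Ddx6-KO day 2, and with a pseudocount of 0.1. The TOM call was lost with a pseudocount of 0.1 and in a fit of the TOM libraries alone. Between the lines at day 0 it was 4.02-fold lower by mean in Ddx6-KO cells with no overlap, but the difference of −1.95 ± 0.86 did not pass, with the widest error of the 10 genes. That difference did pass with a pseudocount of 5 and in a fit of the day 0 libraries alone. The difference of changes was 1.61 ± 1.21 and the day 2 difference −0.35 ± 0.86, and neither passed.

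Ifi44 measured 1.08 and 1.26 FPKM in Ddx6-KO cells at day 2, against 27.6 and 13.7 FPKM at day 0. In TOM cells Ifi44 measured 3.51 and 3.60 FPKM at day 2, against 80.9 and 68.7 FPKM at day 0. Its levels were thus lower in the Ddx6-KO libraries than in the TOM libraries on both days, with no overlap. Ifi44 fell by 3.24 ± 0.30 in Ddx6-KO cells (17.7-fold by mean, on about 6.3 and 12.6 fragments at day 2) and fell by 4.05 ± 0.30 in TOM cells (21.1-fold), and the difference of these changes, 0.81 ± 0.42, did not pass. The line differences were −1.07 ± 0.30 at day 2 and −1.88 ± 0.30 at day 0, and both passed. The day 2 call was lost without any 1 of the libraries of Ddx6-KO day 2, TOM day 2 or TOM day 0, and the day 0 call without library 1 of TOM day 0.

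Ifi44 and Bst2 thus stood apart in Ddx6-KO cells at day 2. The ratio of Bst2 to Ifi44 within a library was 43.3 and 33.9 in Ddx6-KO cells at day 2, 2.60 and 3.60 in Ddx6-KO cells at day 0, 4.20 and 3.02 in TOM cells at day 2 and 5.23 and 4.32 in TOM cells at day 0. A ratio within a library does not depend on how libraries were scaled to each other. It shows unequal change of the pair and was not tested.

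Ifitm1, Ifitm2 and Ifitm3 are small membrane proteins that stop the fusion of viral and cell membranes, Ifitm1 mainly at the cell surface and Ifitm2 and Ifitm3 in endosomes. Their genes form a cluster on chromosome 7 (Ifitm2 at chr7:140954837-140955987, minus strand; Ifitm1 at chr7:140967221-140969825, plus strand; Ifitm3 at chr7:141009586-141010770, minus strand), with gaps of 11.2 kb and 39.8 kb. They are close paralogs that can share reads, and Ifitm2 also overlaps the gene model Gm45717 on its own strand, so the split of reads among them is uncertain. Ifitm2 and Ifitm3 were the most abundant of the 10 genes per length in all groups but TOM day 0, where Bst2 came between them.

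Ifitm2 measured 559 and 570.3 FPKM in Ddx6-KO cells at day 2 and 765 and 732 FPKM at day 0. TOM cells had 479.6 and 425 FPKM at day 2 and 249 and 233 FPKM at day 0. TOM day 0, the group highest in Bst2, was the lowest in Ifitm2, and Ddx6-KO day 0 was the highest, with no overlap.

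The difference of Ifitm2 between the days in Ddx6-KO cells was −0.41 ± 0.13 and did not pass. In TOM cells it rose by 0.90 ± 0.13, a call lost without library 1 of TOM day 2 and with other scalings (0.68 after rescaling to TPM and 0.59 after quantile normalization). The difference of changes was −1.31 ± 0.18 and passed, though not without library 1 or library 2 of Ddx6-KO day 0, without library 1 of TOM day 2 or after quantile normalization. At day 0 Ifitm2 was higher in Ddx6-KO cells by 1.63 ± 0.13 (3.10-fold by mean), and at day 2 the difference of 0.32 ± 0.13 (1.25-fold) did not pass.

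Ifitm3 measured 418 and 388 FPKM in Ddx6-KO cells at day 2, against 938 and 792 FPKM at day 0. In TOM cells it measured 284 and 307 FPKM at day 2, against 649 and 487 FPKM at day 0. Both lines were lower at day 2 and Ddx6-KO cells were above TOM cells on both days, with no overlap. Ifitm3 fell by 1.10 ± 0.17 in Ddx6-KO cells (2.15-fold by mean) and by 0.93 ± 0.17 in TOM cells (1.92-fold). The Ddx6-KO call was lost without library 1 of Ddx6-KO day 0, and the TOM call without library 1 of TOM day 0, library 1 of TOM day 2 or library 2 of TOM day 2. The difference of changes was −0.17 ± 0.25, and the line differences were 0.45 ± 0.17 at day 2 and 0.61 ± 0.17 at day 0, none of which passed.

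Ifitm1 measured 6.75 and 2.96 FPKM in Ddx6-KO cells at day 2 and 7.49 and 6.66 FPKM at day 0. TOM cells had 2.02 and 0.91 FPKM at day 2 and 0.562 and 1.72 FPKM at day 0. Ifitm1 was low throughout, lower in every TOM library than in every Ddx6-KO library, and the days overlapped in both lines. At day 0 Ifitm1 was higher in Ddx6-KO cells by 1.97 ± 0.42 and passed, a call lost without either library of Ddx6-KO day 0 or library 1 of TOM day 0. At day 2 its difference was 1.21 ± 0.42 and did not pass, and over time it was −0.54 ± 0.42 in Ddx6-KO cells and 0.22 ± 0.42 in TOM cells, with −0.76 ± 0.60 between them. Ifitm1 rested on about 5.5 to 7.3 fragments in Ddx6-KO cells at day 2, 1.8 to 3.6 in TOM cells at day 2 and 4.3 to 8.6 in TOM cells at day 0, so no fold is given.

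The ratio of Ifitm2 to Ifitm3 within a library was 1.34 and 1.47 in Ddx6-KO cells at day 2 and 0.816 and 0.925 at day 0. The TOM ratios were 1.69 and 1.38 at day 2 and 0.384 and 0.479 at day 0. Ifitm2 thus exceeded Ifitm3 in all 4 day 2 libraries and in none of the 4 day 0 libraries. Bst2 over Ifitm3 was 0.112 and 0.1102 in Ddx6-KO cells at day 2, 0.0766 and 0.0622 at day 0, 0.0519 and 0.0354 in TOM cells at day 2 and 0.652 and 0.610 in TOM cells at day 0.

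**Figure D4:**
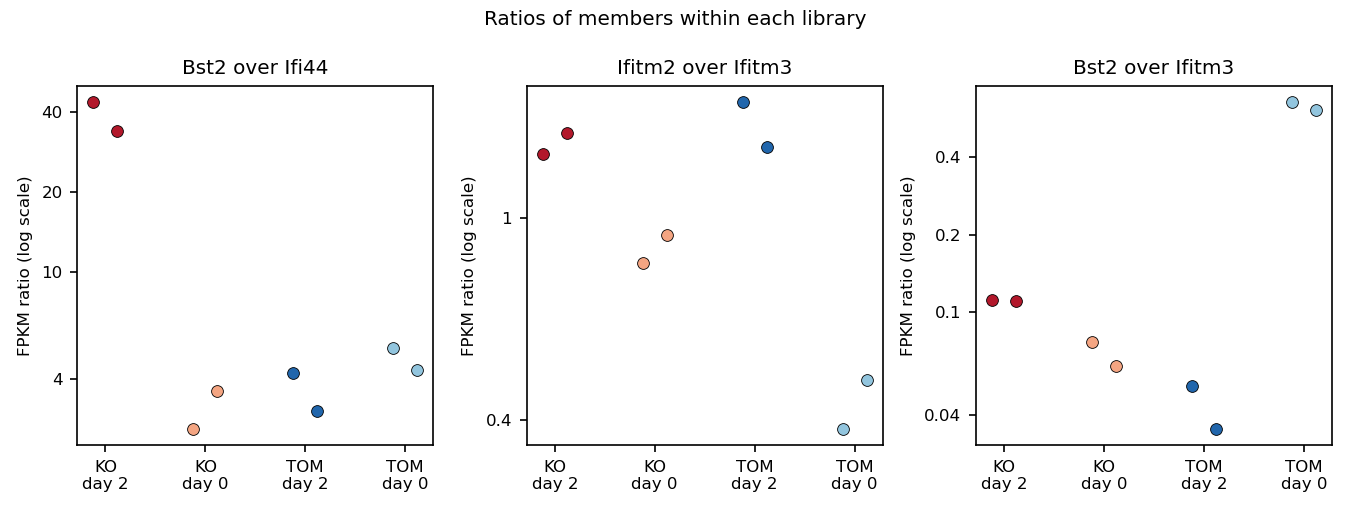
Ratio of FPKM of a pair of genes within each library (points, library 1 left of library 2) by group, on logarithmic y axes. Bst2 over Ifi44 is 43.3 and 33.9 in Ddx6-KO day 2, Ifitm2 over Ifitm3 is above 1 in the day 2 libraries of both lines, and Bst2 over Ifitm3 is 0.652 and 0.610 in TOM day 0.

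Between the lines at day 0, 5 of the 10 genes passed as lower in Ddx6-KO cells (Bst2, Mx1, Mx2, Rsad2 and Ifi44), against 4.81% of all genes, and 2 as higher (Ifitm1 and Ifitm2), against 6.55%. At day 2, 1 passed as lower, Ifi44, against 8.58% of all genes, and 1 as higher, Bst2, against 10.4%. The medians of the 10 were −1.92 at day 0, against 0.05 over all genes, and 0.34 at day 2, against 0.11. The count at day 2 was 1 without any 1 of library 1 of Ddx6-KO day 2 and the 4 TOM libraries, with Bst2 left each time. For the change in Ddx6-KO minus the change in TOM, 4 genes passed as higher (Bst2, Mx1, Mx2 and Rsad2), against 2.02% of all genes, and 1 as lower (Ifitm2), against 2.17%, with a median of 1.21 against 0.04. That count of 5 was 2, Bst2 and Mx1, without library 1 or library 2 of Ddx6-KO day 0, and 3 without either TOM day 0 library or library 1 of TOM day 2. For Mx1, Mx2 and Rsad2 both lines were near the floor at day 2, so the difference of changes is mostly their gap at day 0.

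**Figure D5:**
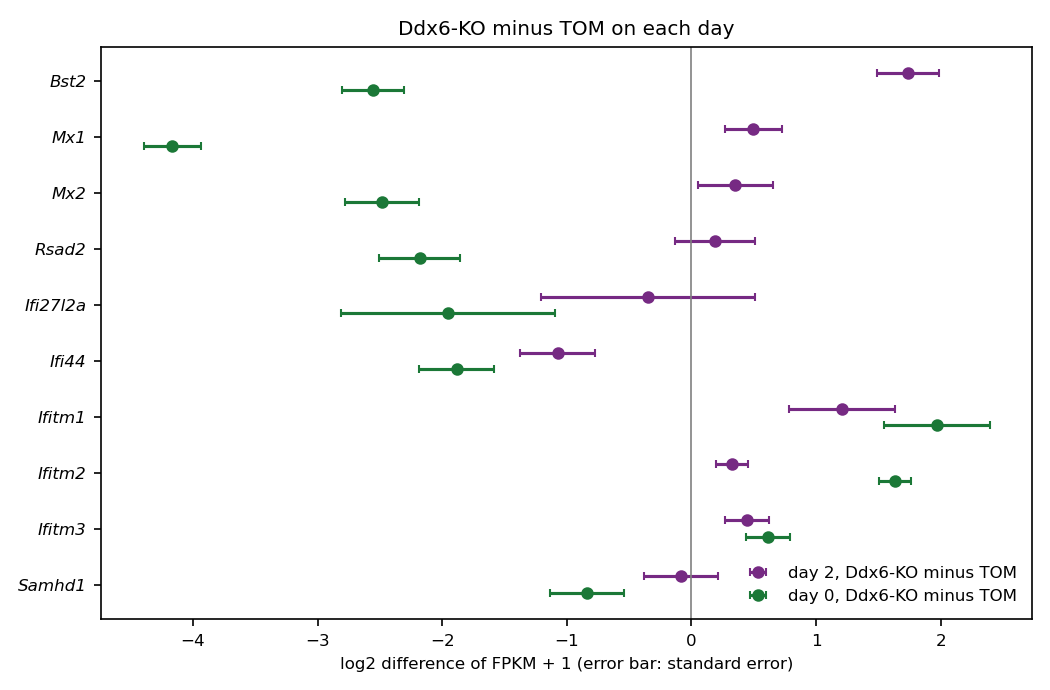
Ddx6-KO minus TOM on the log2(FPKM + 1) scale for each gene (points, with the standard error as bars) at day 2 and at day 0. Bst2 lies at 1.74 at day 2 and at −2.55 at day 0, while the 3 Ifitm genes lie above 0 on both days.

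The members did not form a single pattern over the 8 libraries. Against the mean profile of the other 9, Pearson's r of log2(FPKM + 1) was 0.91 for Mx2 and Rsad2, 0.88 for Bst2 and Ifi44, 0.86 for Ifi27l2a, 0.73 for Mx1, 0.71 for Ifitm3, 0.22 for Samhd1, −0.12 for Ifitm1 and −0.50 for Ifitm2. The highest r of a pair was 0.97 (Mx2 with Rsad2) and the lowest −0.84 (Mx1 with Ifitm2). The points are 4 pairs of libraries that share their treatment, so these values describe the group order more than they do independent samples. Among other genes of at least 5 FPKM on average, the mean profile of the 10 was most like Ifi30, a lysosomal thiol reductase of antigen presentation (r = 0.99), then Thbs2, Vat1, H2-K1 and Lgals9 (0.98 to 0.99). The genes most like Bst2 alone were Ctsa, Uba7, Islr, Ccnd1 and Cnn2 (0.98 to 0.99 over 8 libraries), of which Uba7 is the enzyme that activates Isg15.

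Among 7 family relatives, 4 were tested. At day 0 Ifitm6 was higher in Ddx6-KO cells by 1.40 (adjusted p = 0.0214 in limma), with 4.57 and 5.04 FPKM in Ddx6-KO cells and 1.73 and 0.76 FPKM in TOM cells. Ifitm10 was higher at day 2 by 1.44 (adjusted p = 0.038), with 9.07 and 4.70 FPKM in Ddx6-KO cells and 2.72 and 1.10 FPKM in TOM cells. Ifi27, a relative of Ifi27l2a, measured 32.01 and 42.7 FPKM in Ddx6-KO cells at day 2, 41.5 and 50.6 FPKM in Ddx6-KO cells at day 0, 48.7 and 37.9 FPKM in TOM cells at day 2 and 42.0 and 20.6 FPKM in TOM cells at day 0, and its largest difference was −0.83 (adjusted p = 0.397), for the change in Ddx6-KO minus the change in TOM.

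The rest of the pathway is given from lists put together with earlier results of these libraries known. Of 18 interferon genes, the ligands, none had 1 FPKM in 2 libraries. Ifnb1, the gene of interferon beta, was listed at 0 in all 4 day 2 libraries and measured 0.295 and 0.467 FPKM in Ddx6-KO cells and 0.399 and 0.494 FPKM in TOM cells at day 0. Of 19 receptor and signalling genes tested, 8 fell in Ddx6-KO cells (median −0.66), and 8 fell and 1 rose in TOM cells (median −0.45). Socs3, an inhibitor of cytokine signalling, was higher in Ddx6-KO cells at day 0 by 2.67 (adjusted p = 0.000304). In this list Ddx6-KO cells had 4 genes lower and 3 higher at day 0 (median −0.37), 5 lower and 1 higher at day 2 (median −0.14), and 2 were higher and 2 lower in the change in Ddx6-KO minus the change in TOM (median −0.09). The gene higher at day 2 was Irf1 (1.03, adjusted p = 0.00517), an activator of interferon-induced genes.

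Sensors of foreign nucleic acid had 12 genes tested. In Ddx6-KO cells 5 fell and 1 rose (median −0.70), in TOM cells 5 fell and 1 rose (median −1.14), and for the difference of changes 2 were higher (median 0.44), Tlr3 and Ifih1. Of the sensors, Ddx6-KO cells had 5 lower and 2 higher at day 0 (median −0.50), and at day 2, 1 was lower and 2 higher (median −0.04). The day 2 shares of all genes were 8.58% lower and 10.4% higher. Tmem173, which encodes the DNA-sensing adaptor STING, was higher in Ddx6-KO than in TOM cells by 1.18 at day 2 (adjusted p = 0.0174) and by 1.89 at day 0 (adjusted p = 0.0044). Ifih1, the double-stranded RNA sensor MDA5, was lower by −2.69 at day 0 (adjusted p = 0.0031).

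Other interferon-induced families were lower at day 2 as well. Of 8 OAS genes tested, whose products sense double-stranded RNA, 6 fell in Ddx6-KO cells (median −1.55) and 6 in TOM cells (median −3.35), 5 had less RNA in Ddx6-KO cells at day 0 (median −1.36), and 3 were higher in the difference of changes (median 1.52). At day 2 the OAS median was 0.07, and Oas1c had the smallest adjusted p, 0.0666, at 0.99. Of 11 IFIT and ISG15 pathway genes tested, 8 fell in Ddx6-KO cells (median −2.14) and 10 in TOM cells (median −3.37), 9 were lower in Ddx6-KO cells at day 0 (median −1.63) and 4 were higher in the difference of changes (median 2.12). At day 2, 1 was lower (Ube2l6, −1.33, adjusted p = 0.00529) and 1 higher (Uba7, 1.06, adjusted p = 0.0156), with a median of 0.38. Both counts are near the shares of all genes, 8.58% lower and 10.4% higher. Ifit3, which with its family binds viral RNA, fell by 2.90 in Ddx6-KO cells (adjusted p = 0.00127) and fell by 6.59 in TOM cells (adjusted p = 8.69e-05).

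Of 21 other restriction factors tested, 8 fell in Ddx6-KO cells (median −0.81) and 13 in TOM cells (median −1.63). Ddx6-KO cells had 4 of them lower and 2 higher at day 0 (median −0.45), and at day 2, 6 were higher (median 0.27). The shares of all genes were 4.81% lower and 6.55% higher at day 0, and 10.4% higher at day 2. The list was chosen with earlier results known, so nothing is read from these counts. In the difference of changes 2 were higher (median 0.85), Trim30d at 2.46 (adjusted p = 0.00402) and Trim30a at 1.85 (adjusted p = 0.0085). Trim30d was also higher in Ddx6-KO cells at day 2 by 2.28 (adjusted p = 0.000707), larger than the 1.74 of Bst2; Trim30a and Trim30d belong to a family of close paralogs that can share reads. Hmga1, a chromatin protein placed in the list for its part in retroviral repression, fell by 3.01 in Ddx6-KO cells (adjusted p = 0.000183).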

How the data were processed

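RNA-seq libraries were made with a stranded total RNA kit and read in pairs. The deposited values are FPKM per gene, for which the authors ran Cufflinks 2.2.1 on TopHat2 2.1.0 alignments to GRCm38; the sources used here do not say how strand and reads that map to several places were counted. All 8 libraries were used, 2 per group; library 1 and library 2 follow the numbers of the deposited columns. Symbols and positions are from GENCODE M21 (45139 of 46073 identifiers matched). On log2(FPKM + 1), limma 3.58.1 (R 4.3.3) was fitted to the 15811 genes that reached 1 FPKM in 2 or more libraries, with 1 mean per group and a variance trend, tested on simulated data; adjusted p-values are Benjamini-Hochberg within each of 5 comparisons, with a threshold of 0.05. FPKM is not counts, so no count test was used. Depth and fragment numbers are estimates from the spacing of low FPKM values. Named are the 10 members, their family relatives, up to 4 genes of smallest p per list and comparison, and the genes of most similar profile. Members and lists were chosen with earlier results of these data known. Alternatives covered pseudocount, filter, scaling, variance model, a block by column number, fits on the compared libraries alone, and leaving out each library. Some single genes of the lists are not reported here.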

Additional observations from a re-analysis of the deposited data

Results flagged for a closer look

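For 5 of the 10 genes the fit gave a change over induction that differed between the lines. These genes were chosen with the same values known, so this describes the libraries and is no independent evidence of a difference. The change in Ddx6-KO minus the change in TOM was 4.29 for Bst2, 4.66 for Mx1, 2.83 for Mx2, 2.37 for Rsad2 and −1.31 for Ifitm2 on the log2 scale. Mx1 was above Bst2 on this scale, and Bst2 was above Mx1 with a pseudocount of 5 and with quantile normalization. Of the 5 genes only Bst2 passed between the lines at day 2. Mx1, Mx2 and Rsad2 were near the floor there in both lines, with group means of 0.294 to 1.14 FPKM. Their differences of changes are thus mostly the gap between the lines at day 0 (−4.17, −2.48 and −2.18). The calls of Mx2 and Rsad2 were lost with a pseudocount of 0.1.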

How the results depend on the processing

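The count of the 10 genes past the threshold at day 0 between the lines (7) stayed within 1.5 times in every alternative, and no result changed sign while past the threshold. For the change in Ddx6-KO minus the change in TOM the count of 5 was 3 with a pseudocount of 0.1, where Mx2 and Rsad2 were lost. It was also 3 with quantile normalization, where Rsad2 and Ifitm2 were lost, and 2 to 4 when a library was left out. For Ddx6-KO day 2 against day 0 the count of 5 was 3 with a pseudocount of 0.1 and with the libraries of the comparison alone, and 2 to 5 when a library was left out. For TOM day 2 against day 0 the count of 8 was 5 with the libraries of the comparison alone, and 6 to 8 when a library was left out. At day 2 between the lines the count of 2 was 1 with a pseudocount of 5, with no filter, with no variance trend and with the libraries of the comparison alone, 4 with quantile normalization, and 1 to 2 when a library was left out. Deviations of same-numbered libraries correlated at −0.096 to 0.067. This shows no pairing by column number but cannot exclude a shared culture or batch. In some groups the titles and the columns number the libraries differently, so some columns match a group only. A replicate block on the column numbers gave 1 at day 2 between the lines and 4 for the difference of changes, and left the other counts at 8, 5 and 7. Rescaling to TPM, with the filter applied again, left 20144 genes, against 15811 in the main fit. The median of these genes was −0.19 in Ddx6-KO cells and −0.14 in TOM cells, so scaling and gene set changed together. Ifitm2 then passed as lower in Ddx6-KO cells (−0.84). Depth limits Mx1, Mx2, Rsad2, Ifi27l2a and Ifitm1 at day 2, Ifi44 in Ddx6-KO cells at day 2 and Ifitm1 in TOM cells at day 0, and a group left with 1 library is assumed to vary like the others. Fits on the compared libraries alone lost Mx2 and Rsad2 in Ddx6-KO cells, Ifi27l2a, Ifitm2 and Ifitm3 in TOM cells, Ifi44 and Ifitm1 between the lines at day 0 and Ifi44 at day 2. Between the lines at day 0 such a fit gained Ifi27l2a. The fit on the compared libraries alone could not be made for the difference of changes, which needs all 8. The causes of these shifts were not tested.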
